A study of Mus musculus with 14 samples.

Results

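Astrocyte genes were described as a set of 10 genes that mark this cell type, namely Gfap, Aqp4, Aldh1l1, Slc1a3, Slc1a2, Gja1, Gjb6, Aldoc, Glul and Sox9. A gene was taken from a probe set annotated with that symbol alone. This left 9 of the 10 genes, each on 1 probe set, of 14860 genes so measured on 14996 of 23332 probe sets. The only probe set of Slc1a2, the main glutamate transporter of astrocytes, also carried another symbol, so it has no value here. The study deleted Ctcf, the gene of a DNA-binding architectural protein, with Nex-Cre, and measured RNA of mouse cerebral cortex and hippocampus at postnatal day 7 on exon arrays. Values are log2 expression levels, so a difference of 1 is a change of 2-fold, and they are compared between arrays of a gene, not between genes.

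All mice were labelled C57BL/6 and male, and both genotypes carried 2 floxed Ctcf alleles. Controls were CTCF fl/fl; Nex-Cre +/+, and cKO (conditional knockout) mice were CTCF fl/fl; Nex-Cre +/Cre. Cortex had 4 control and 4 cKO arrays, and hippocampus was labelled with 3 of each. Cre sits in the Nex (Neurod6) locus, which drives recombination in forebrain excitatory neurons and is not known as a driver for astrocytes, and no group carried Cre without floxed Ctcf. The labels call the arrays biological replicates and do not tie cortex and hippocampus arrays to the same animal.

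Astrocytes are the glia that surround synapses and blood vessels. They take up glutamate through Slc1a3 and Slc1a2 and turn it into glutamine with Glul, pass water at their vessel endfeet through Aqp4, and share ions and metabolites through gap junctions of Gja1 and Gjb6. In the first postnatal weeks of the mouse forebrain they multiply and mature, and Gfap is a long-used marker that is abundant in hippocampal astrocytes and sparse in those of cortical grey matter.

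Promoter windows are shown for 3 of the members, chosen because Gfap differed most in the cKO cortex and because Slc1a3 and Gja1 differed between regions. Each runs from 250 bases before to 50 after the start, read 5′ to 3′ on the gene's strand, from RefSeq on GRCm38.p6. The Gfap window lies at chr11:102897151-102897450 on the minus strand, and its capitals mark the letters of a STAT motif, TTCNNNGAA, the kind of site bound by the gliogenic factor Stat3. The Slc1a3 window lies at chr15:8710758-8711057 on the minus strand, with the same motif in capitals. The Gja1 window lies at chr10:56377050-56377349 on the plus strand, with an AP-1 motif, TGANTCA, in capitals.
Gfap: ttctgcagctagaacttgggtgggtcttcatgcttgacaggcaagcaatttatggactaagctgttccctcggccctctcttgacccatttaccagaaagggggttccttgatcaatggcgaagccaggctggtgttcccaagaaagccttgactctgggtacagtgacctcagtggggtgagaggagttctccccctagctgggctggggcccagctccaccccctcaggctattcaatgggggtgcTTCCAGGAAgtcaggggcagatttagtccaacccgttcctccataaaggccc
Slc1a3: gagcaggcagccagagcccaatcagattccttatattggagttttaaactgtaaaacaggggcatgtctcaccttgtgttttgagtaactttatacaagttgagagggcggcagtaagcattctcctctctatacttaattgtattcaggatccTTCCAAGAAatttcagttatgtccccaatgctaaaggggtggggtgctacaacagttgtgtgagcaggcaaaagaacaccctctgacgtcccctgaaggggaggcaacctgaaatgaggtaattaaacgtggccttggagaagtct
Gja1: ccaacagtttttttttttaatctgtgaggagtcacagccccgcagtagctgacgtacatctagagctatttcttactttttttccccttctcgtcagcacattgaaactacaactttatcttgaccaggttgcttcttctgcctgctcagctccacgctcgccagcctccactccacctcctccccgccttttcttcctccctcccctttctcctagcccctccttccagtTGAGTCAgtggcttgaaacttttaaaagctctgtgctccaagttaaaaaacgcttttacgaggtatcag

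Windows were matched for 7 of the 9 measured members, as 8 windows, and both strands were searched. Aqp4 and Sox9 had no matched window, so Sox9, which also differed between regions, is not among those shown. A STAT match was found for 3 genes, Gfap, Slc1a3 and Aldoc, and 8.3% of all 32851 RefSeq promoter windows of this length hold one. For Aldoc the window at chr11:78323948-78324247 holds the letters, and that at chr11:78322823-78323122 does not. The AP-1 letters were found for Gja1 alone of these members and are held by 7.81% of all windows. The letters of a TATA box, TATAAA, were found for Slc1a3 alone and are held by 13.6% of all windows. That match lies at -161 from the start, on the strand opposite to the one shown. A match describes the letters only.

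The arrays labelled hippocampus control 2, cKO 1 and cKO 3 matched a cortex array almost value for value, with a Spearman correlation of at least 0.997 against at most 0.990 between any other arrays. They were set aside, so the fit used 11 arrays, with 2 control and 1 cKO array of hippocampus. On those 3 hippocampus arrays the dentate gene Prox1 was at 8.91 to 9.28, against 6.61 to 7.20 on the cortex arrays. Rorb, also a check of the region, was at 7.14 to 7.58 on the same hippocampus arrays and 9.49 to 9.89 on the cortex arrays. Y-linked signal was at 3.61 to 4.10, a background level, on cortex cKO 1 and 4, hippocampus control 1 and hippocampus cKO 2, and at least 7.91 on the rest, although all mice were labelled male. Ctcf was at 9.18 to 9.29 on the cortex controls and 7.74 to 7.94 on the cortex cKO arrays, and at 8.95 and 9.16 on the hippocampus controls and 8.31 on the hippocampus cKO array. Neurod6 was at 10.05 to 10.32 on the cortex controls and 7.78 to 8.73 on the cortex cKO arrays. No member was at or below 3.61, a guide to background taken as the median over 719 olfactory receptor probe sets, on any kept array.

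In the cKO cortex no measured astrocyte gene passed the test, and the values of 8 of 9 genes overlapped between genotypes. Gfap was the exception to the overlap, with all 4 cKO arrays above all 4 controls, and its mean difference was 1.48-fold. Sox9 and Aldoc differed least, by -0.02 and 0.03. Passing, or being called, means an adjusted p under 0.05 in limma's moderated test over all probe sets and a fold above 1.2. That rule called 0 of 9 astrocyte genes and 1.95% of all probe sets. At an unadjusted p under 0.05 the counts were 1 of 9 and 11.4% of all. RNA came from whole tissue, in which fewer cells of a type and less RNA per cell cannot be told apart.

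Gfap (probe set 6791641) encodes the intermediate filament protein of astrocytes. Its cortex controls 1 to 4 were at 8.59, 7.59, 7.82 and 8.50, and cortex cKO arrays 1 to 4 at 8.64, 8.69, 8.72 and 8.70. The control arrays thus fell into a high and a low pair, while the cKO arrays lay together, just above the highest control. The means were 8.12 ± 0.50 (SD, n = 4) and 8.69 ± 0.03 (SD, n = 4). The difference was 0.57 with a moderated standard error (SE) of 0.21, a 95% interval of 0.09 to 1.04 and a limma adjusted p of 0.328. Groups did not overlap for 2.7% of all probe sets in this direction and for 8.4% in either. Over the alternative settings the Gfap difference ranged from 0.39 to 0.75 and its adjusted p from 0.0642 to 0.726, so it passed under none of them.

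The transporter and the enzyme of glutamate uptake did not pass either. Slc1a3 (GLAST, probe set 6833902) was at 10.36, 10.06, 10.08 and 10.41 on cortex controls 1 to 4 and 10.11, 10.39, 10.44 and 10.27 on cortex cKO 1 to 4. Glul (glutamine synthetase, probe set 6754149) was at 9.73, 9.67, 10.05 and 10.19 on the controls and 9.99, 10.44, 10.18 and 9.98 on the cKO arrays. The ranges of both genes overlapped between genotypes. The difference of Slc1a3 was 0.07 with a 95% interval of -0.18 to 0.33, and that of Glul 0.23 with an interval of -0.10 to 0.56.

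The channel genes also overlapped. Aqp4 (aquaporin-4, the endfoot water channel, probe set 6863605) was at 10.16, 9.51, 9.67 and 10.11 on cortex controls 1 to 4 and 9.79, 10.03, 9.98 and 9.86 on cortex cKO 1 to 4. Gja1 (connexin 43, probe set 6768014) was at 9.81, 9.60, 9.59 and 10.22 on the controls and 9.78, 10.13, 10.33 and 9.99 on the cKO arrays. Gjb6 (connexin 30, probe set 6824940) was at 7.29, 7.25, 7.26 and 7.65 on the controls and 7.38, 7.79, 7.90 and 7.48 on the cKO arrays. For both connexins cKO 2 and 3 were the highest cKO arrays, and cortex control 4 was the highest control. The difference of Gjb6 was 0.28 (SE 0.14), with a 95% interval of -0.04 to 0.60 and a limma adjusted p of 0.519. That of Gja1 was 0.25 with an interval of -0.12 to 0.61, and that of Aqp4 was 0.05 with an interval of -0.29 to 0.39.

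Of the metabolic enzymes, Aldh1l1 (a folate enzyme used as a pan-astrocyte marker, probe set 6947936) was at 9.55, 8.81, 8.97 and 9.40 on cortex controls 1 to 4 and 9.33, 9.29, 9.11 and 9.28 on cortex cKO 1 to 4. Aldoc (the glycolytic enzyme aldolase C, probe set 6782694) was at 11.01, 10.89, 10.95 and 11.01 on the controls and 10.85, 11.21, 11.13 and 10.79 on the cKO arrays. The cKO arrays of Aldh1l1 lay inside the range of its controls, and those of Aldoc lay on both sides of its controls. The differences were 0.07 with a 95% interval of -0.29 to 0.43 for Aldh1l1 and 0.03 with an interval of -0.20 to 0.27 for Aldoc. Sox9 (probe set 6784940), a transcription factor of the glial lineage, was at 8.23, 8.08, 8.02 and 8.10 on the controls and 8.14, 8.01, 8.11 and 8.07 on the cKO arrays. Its difference of -0.02 had the narrowest interval of the 9 genes, -0.18 to 0.13. Its sign turned under 3 scaling or weighting alternatives and when single arrays were left out, so no direction is given for it.

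**Figure D1:**
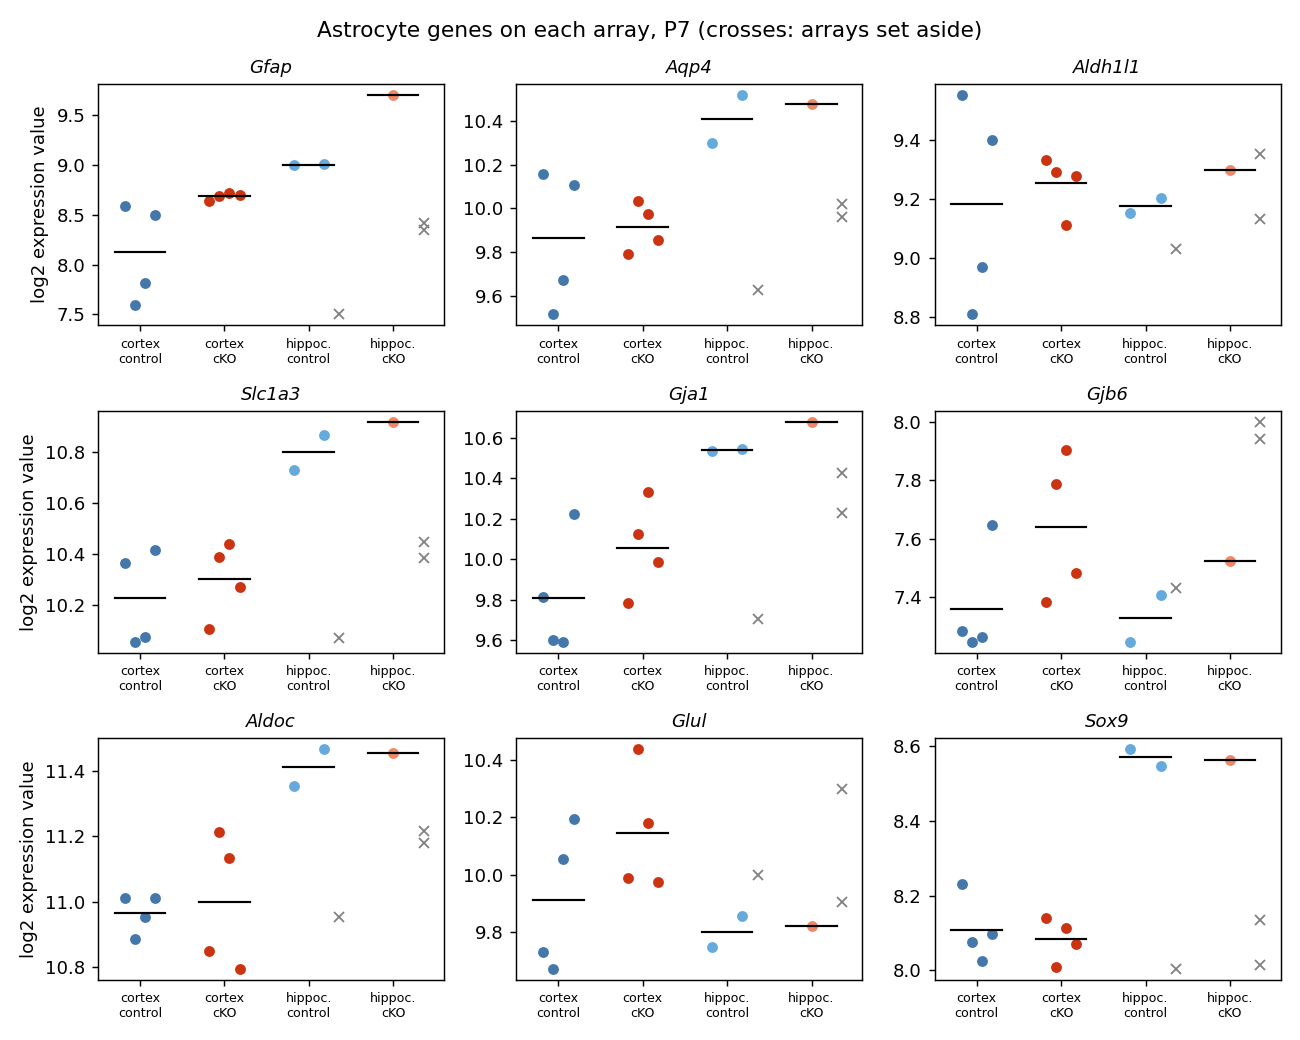
log2 expression of the 9 measured astrocyte genes (1 panel per gene), with a point for each array by region and genotype, a bar at the mean of each group's kept arrays, and the 3 arrays set aside marked apart. Gfap in cortex shows controls from 7.59 to 8.59 below cKO arrays from 8.64 to 8.72, and Sox9 shows the 3 kept hippocampus arrays, at 8.55 to 8.59, above all 8 cortex arrays.

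Over the list, 8 of 9 differences in cortex were positive with a median of 0.07, beside a median of -0.02 and 45.4% positive over all probe sets. Aqp4, Aldh1l1 and Aldoc were among the positive ones, but their signs turned when single arrays were left out. Their lowest values were then -0.066, -0.055 and -0.039. Arrays differed in the level of the whole set. The mean over the 9 genes was 9.42, 9.05, 9.16 and 9.51 on cortex controls 1 to 4 and 9.34, 9.55, 9.54 and 9.38 on cortex cKO 1 to 4. Control 2 was the lowest control for 7 of the 9 genes, and controls 1 and 4 lay 0.13 and 0.23 above their group's mean of each gene on average. Averaged over all probe sets, controls 1 to 4 deviated by 0.10, -0.06, -0.04 and 0.00. Several other lists followed a similar order over controls 1 to 4. The mean level of 11 microglia markers was 6.89, 6.46, 6.50 and 7.01, that of 11 oligodendrocyte markers 7.62, 7.40, 7.40 and 7.87, and that of 11 endothelial and pericyte markers 7.92, 7.58, 7.55 and 7.81. Meningeal markers were at 7.76, 7.45, 7.49 and 7.86, excitatory neuron markers at 9.72, 9.51, 9.58 and 9.67 and pan-neuronal markers between 10.88 on control 2 and 11.14 on control 1. In all of these lists controls 1 and 4 were above controls 2 and 3. Ependymal and choroid plexus markers departed from that order, at 5.11, 5.19, 5.09 and 5.21, with control 1 below control 2. So did the region markers, at 8.59, 8.39, 8.35 and 8.26, with control 4 the lowest. The part of the listed cells in the spread of the astrocyte genes was not tested.

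Cortex cKO 1 and 4, which lacked Y-linked signal, had the lower set means of the cKO group. Without all arrays lacking that signal the differences were larger for most genes, at 0.49 for Gjb6, 0.42 for Gja1, 0.39 for Glul, 0.21 for Aldoc and 0.58 for Gfap, and the smallest limma adjusted p among these was 0.317. With Y-linked signal as a covariate Gjb6 was at 0.44 with an adjusted p of 0.221. No member passed in either fit.

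The second comparison was between regions, in controls, with 2 hippocampus and 4 cortex arrays. Control hippocampus was higher than control cortex in 3 of the 9 astrocyte genes, Sox9, Slc1a3 and Gja1, and lower in none. Calls in the higher direction covered 6.2% of all probe sets. Gfap, Aldoc and Aqp4 lay above every cortex control on both hippocampus controls without passing, so 6 of 9 genes had groups that did not overlap, beside 19.4% of all probe sets in that direction and 37.6% in either. Aldh1l1, Gjb6 and Glul overlapped between regions. The median difference of the 9 genes was 0.46, beside 0.02 over all probe sets.

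Sox9 was at 8.59 and 8.55 on hippocampus controls 1 and 3, which lie close together and above the highest cortex control at 8.23. It was higher in hippocampus by 0.46 (SE 0.08, 95% interval 0.27 to 0.65), or 1.38-fold, with a limma adjusted p of 0.0107. Slc1a3 was at 10.73 and 10.87 in hippocampus, against 10.06 to 10.41 in the cortex controls. It was higher by 0.57 (SE 0.14, 95% interval 0.26 to 0.89), or 1.49-fold, with a limma adjusted p of 0.0299. Gja1 was at 10.53 and 10.54 in hippocampus, against 9.59 to 10.22, and was higher by 0.73 (SE 0.20, 95% interval 0.28 to 1.18), or 1.66-fold, with a limma adjusted p of 0.0431.

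None of these 3 calls held without each array in turn. Without hippocampus control 1 no member passed, with limma adjusted p-values of 0.0934 for Sox9, 0.124 for Slc1a3 and 0.206 for Gja1, and without hippocampus control 3 Sox9 alone passed (0.137 for Slc1a3 and 0.139 for Gja1). Slc1a3 was also lost without cortex control 2 (0.0592) or 3 (0.0663), and Gja1 without cortex control 1 (0.0725), 2 (0.0856) or 3 (0.0902) or cortex cKO 2 (0.0642) or 4 (0.0626). The differences themselves stayed between 0.43 and 0.50 for Sox9, 0.50 and 0.64 for Slc1a3 and 0.66 and 0.87 for Gja1 over these fits.

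Gfap was at 9.00 and 9.01 on the hippocampus controls, above the highest cortex control at 8.59. Its difference of 0.88 (SE 0.26, 95% interval 0.30 to 1.46) was the largest of the 9 genes, but the spread of the cortex controls was wide and the limma adjusted p was 0.0554. Without cortex control 1 the difference was 1.04 and passed with an adjusted p of 0.0291, and without cortex control 4 it passed with 0.0427. Aldoc was at 11.35 and 11.47 in hippocampus and differed by 0.45 (SE 0.13) with an adjusted p of 0.053. Aqp4 was at 10.30 and 10.52, and its difference of 0.55 (SE 0.19) had an adjusted p of 0.089. For both genes the lower hippocampus control still lay above the highest cortex control. The adjusted p of Aldoc was under 0.05 without cortex cKO 2 (0.0457) or cKO 4 (0.0477).

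Aldh1l1 was at 9.15 and 9.20 on hippocampus controls 1 and 3, Gjb6 at 7.25 and 7.41, and Glul at 9.75 and 9.86. Values of each gene fell inside the range of its cortex controls, or just at its low end. The differences were -0.01 with a 95% interval of -0.44 to 0.43 for Aldh1l1, -0.03 with an interval of -0.42 to 0.36 for Gjb6 and -0.11 with an interval of -0.52 to 0.29 for Glul. All 3 turned in sign under some alternatives. Of the connexin genes Gja1 passed and Gjb6 did not, and whether the 2 genes differ from each other was not tested.

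**Figure D2:**
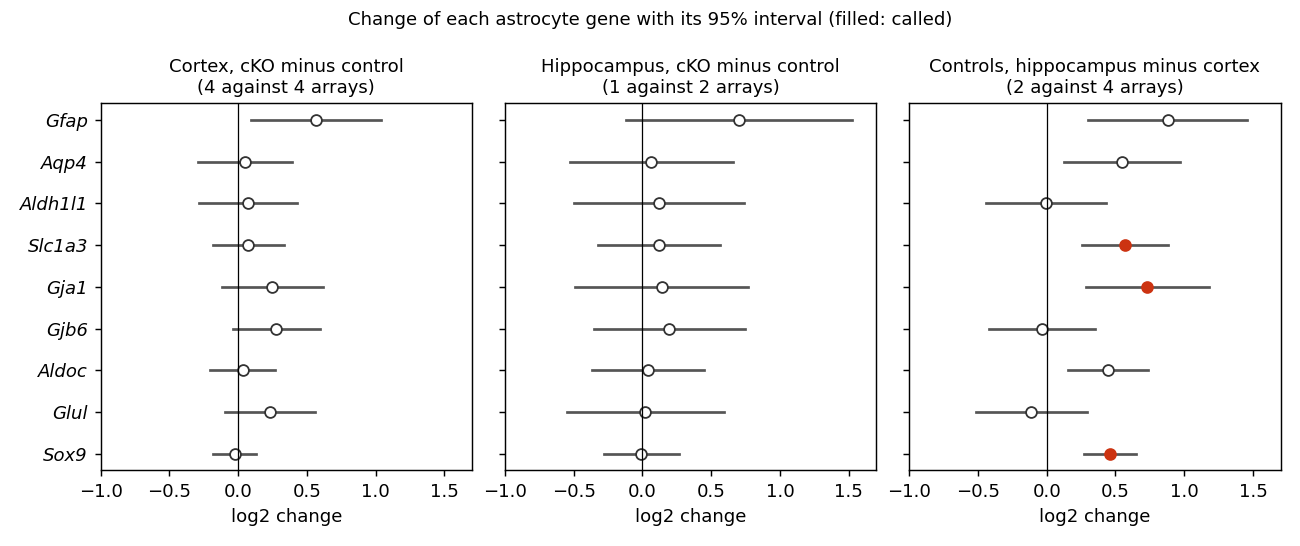
log2 differences of the 9 measured astrocyte genes with their 95% intervals, for cKO minus control in cortex, cKO minus control in hippocampus, and hippocampus minus cortex in controls. The regional differences of Sox9 (0.46), Slc1a3 (0.57) and Gja1 (0.73) passed the test, while the cortex cKO difference of Gfap (0.57) has an interval above 0 without passing after adjustment.

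Matching arrays gave a direct view of how far a value moved between 2 entries of nearly the same data. Gfap was lower on the hippocampus-labelled entry of every matching pair, by 0.32, 0.35 and 0.30, a mean shift of -0.32 at percentile 1.58 of all probe sets, whose median shift was 0.04. Glul shifted by -0.15 on average, Gjb6 by 0.14 and Gja1 by 0.10, and the mean shifts of the other 5 members lay within 0.05 of 0. With the mean shift of every probe set subtracted from the hippocampus arrays, an alternative chosen after seeing the data, Gfap was higher in hippocampus by 1.20 and passed with a limma adjusted p of 0.0322. Sox9 passed too, at 0.46 and 0.0175, while Slc1a3 (0.0517) and Gja1 (0.63, 0.115) did not. That the kept hippocampus arrays carry the shift of the matching pairs was assumed and not tested. With all 14 arrays as labelled no member passed, and the regional differences were 0.27 for Sox9, 0.33 for Slc1a3, 0.45 for Gja1 and 0.38 for Gfap.

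**Figure D3:**
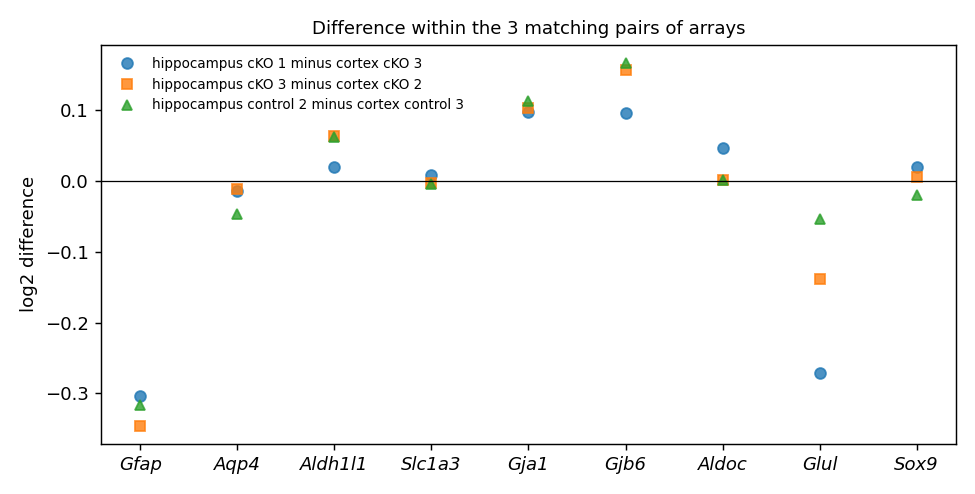
Shift of each measured astrocyte gene between the arrays of the 3 matching pairs (log2 value on the hippocampus-labelled array minus that on its matching cortex array), with 1 point per pair. Gfap lies near -0.32 in all 3 pairs, and most other genes lie near 0.

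In hippocampus the genotype comparison had 1 cKO array against 2 controls, and the fit gave this lone array the spread of the remaining groups. It was cKO 2, and it lay above both controls for Gfap, Aldh1l1, Slc1a3, Gja1 and Gjb6, which is 5 of 9 genes beside 41.6% of all probe sets (25.8% lay below both, so 67.3% in either direction). The median of this array over all probe sets was 6.77, at the top of a range of 6.57 to 6.77. Gfap was at 9.71, against 9.00 and 9.01, a difference of 0.70 (SE 0.36) with a 95% interval of -0.12 to 1.52. Gjb6 was at 7.52, Gja1 at 10.68, Slc1a3 at 10.92 and Aldh1l1 at 9.30, with differences of 0.20, 0.14, 0.12 and 0.12. Aqp4 was at 10.48, Aldoc at 11.45, Glul at 9.82 and Sox9 at 8.56, all between their controls. No member passed in limma, beside 0.00429% of all probe sets called, and with 1 cKO array only the sizes of the differences are read. The median difference of the members was 0.12, beside 0.06 over all probe sets.

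The difference between the cKO effects of the regions was tested as an interaction. No member passed in limma, beside 0.00857% of all probe sets called, and this comparison rests on the same lone hippocampus cKO array. Values ran from -0.21 for Glul to 0.14 for Gfap, and the 95% interval of Gfap, -0.81 to 1.08, was wide. The levels of Gfap were ordered cortex control, cortex cKO, hippocampus control and hippocampus cKO, and Gfap did not pass between genotypes within either region. The middle neighbours, cortex cKO and hippocampus control, were not compared. For Sox9, both cortex groups lay below both hippocampus groups, with little difference within a region.

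Further astrocyte genes were taken from 5 lists of other functions, with 84 measured genes in all. In the cKO cortex 1 of the 84 passed, beside 1.95% of all probe sets called in either direction, and the median difference was 0.04. That gene was Gpc5, a glypican of the cell surface, which was higher, as were 0.591% of all probe sets by the same rule. Gpc5 was at 8.70, 8.27, 8.60 and 8.68 on cortex controls 1 to 4 and 9.17, 9.43, 9.42 and 9.26 on cortex cKO 1 to 4, so the groups were clearly apart. It rose by 0.76 (SE 0.12), or 1.69-fold, with a limma adjusted p of 0.0125, and kept the call without each array in turn. It lost the call with all 14 arrays (0.231), without the arrays that lack Y-linked signal (0.102) and with the replicate block (0.109). Gpc4, a related glypican that astrocytes release to promote excitatory synapses, had a difference of -0.70 (SE 0.16) that did not pass (adjusted p = 0.0781). Gpc5 was at 8.06 and 8.28 on the hippocampus controls and 8.31 on the hippocampus cKO array.

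The remaining lists had no call in the cKO cortex. Among 8 transporter and transmitter genes the smallest p-values were those of Grm3, a metabotropic glutamate receptor, at -0.23, and Slc7a11, the cystine-glutamate exchanger, at 0.67 (SE 0.22, limma adjusted p = 0.253). Of 10 ion, water and endfoot genes none passed, nor of 18 metabolic genes, where Slc2a1, the glucose transporter of vessels and glia, was at -0.26 (adjusted p = 0.349). The 21 gliogenic factors also gave none, with Id2, an inhibitor of bHLH factors, at -0.33 (adjusted p = 0.0925) and Stat3, the signal transducer named above, at -0.35 (adjusted p = 0.108). The medians of these 5 lists ran from -0.0033 to 0.10.

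Genes of reactive astrocytes, which respond to injury and inflammation, gave 1 call of 27 in the cKO cortex, beside 1.95% of all probe sets. Cd44, a surface receptor for hyaluronan that other cells also carry, was at 5.78, 5.07, 5.43 and 5.47 on cortex controls 1 to 4 and 4.85, 4.66, 4.85 and 4.74 on cortex cKO 1 to 4. All cKO arrays were below all controls, as for 5.7% of all probe sets. Cd44 fell by 0.66 (SE 0.14) with a limma adjusted p of 0.048, beside 1.36% of all probe sets called lower, and the call was lost without 9 of the single arrays, up to an adjusted p of 0.15 without cortex cKO 2. Amigo2, an adhesion protein, had a difference of -0.55 (adjusted p = 0.0587), which passed without cortex cKO 1 (0.0483). The list's median was 0.03 with 14 of 27 differences positive.

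Between regions 16 of the 84 further astrocyte genes passed, 12 of them higher in hippocampus, with a median difference of 0.21. Calls covered 12.5% of all probe sets, 6.2% higher and 6.29% lower. The metabolic list gave 5 higher of 18, among them Apoe, the lipid carrier (0.52), Mfge8, a secreted bridge for phagocytosis (0.60), Pygb, a glycogen phosphorylase (0.46), and Plpp3, a lipid phosphatase (0.69). The surface and secreted list gave 4 higher and 2 lower of 27, led by Agt, angiotensinogen, at 1.19 (SE 0.18, limma adjusted p = 0.00485), with Thbs2, a synapse-promoting thrombospondin, at -0.94 and Gpc6 at -0.57. Mlc1, an endfoot membrane protein, was the 1 call of 10 ion, water and endfoot genes, at 0.89 with an adjusted p of 0.0478.

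Grm3 and Id2 were lower in hippocampus and were the only 2 of these 16 calls that held without each array in turn. Both are also expressed in neurons. Grm3 was at 11.62 to 11.69 on the cortex controls and 10.32 and 10.55 on hippocampus controls 1 and 3, a difference of -1.22 (SE 0.09, limma adjusted p = 0.000134). Id2 was at 10.41 to 10.59 and at 9.34 and 9.59, a difference of -1.03 (SE 0.10, adjusted p = 0.000478). The groups were far apart in both genes. Id4 and Notch2, of the same gliogenic list, were higher by 0.50 and 0.56. With all 14 arrays as labelled none of the 5 lists gave a call.

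Of the 27 reactive genes 5 were higher in hippocampus and 24 differences were positive, with a median of 0.30. Over all probe sets 6.2% were called higher, 52.4% were positive and the median was 0.02. Serpina3n, a secreted protease inhibitor, was at 6.74, 6.10, 6.24 and 6.84 on cortex controls 1 to 4 and 8.26 and 8.59 on hippocampus controls 1 and 3. It was the 1 of these 5 calls that held without each array in turn, with a difference of 1.94 (SE 0.27) and a limma adjusted p of 0.00315. With all 14 arrays as labelled its difference was 1.25 with an adjusted p of 0.172, and no gene of the list passed. Serping1 (0.80), Ptx3 (1.01) and Tm4sf1 (0.55) were among the others.

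**Figure D4:**
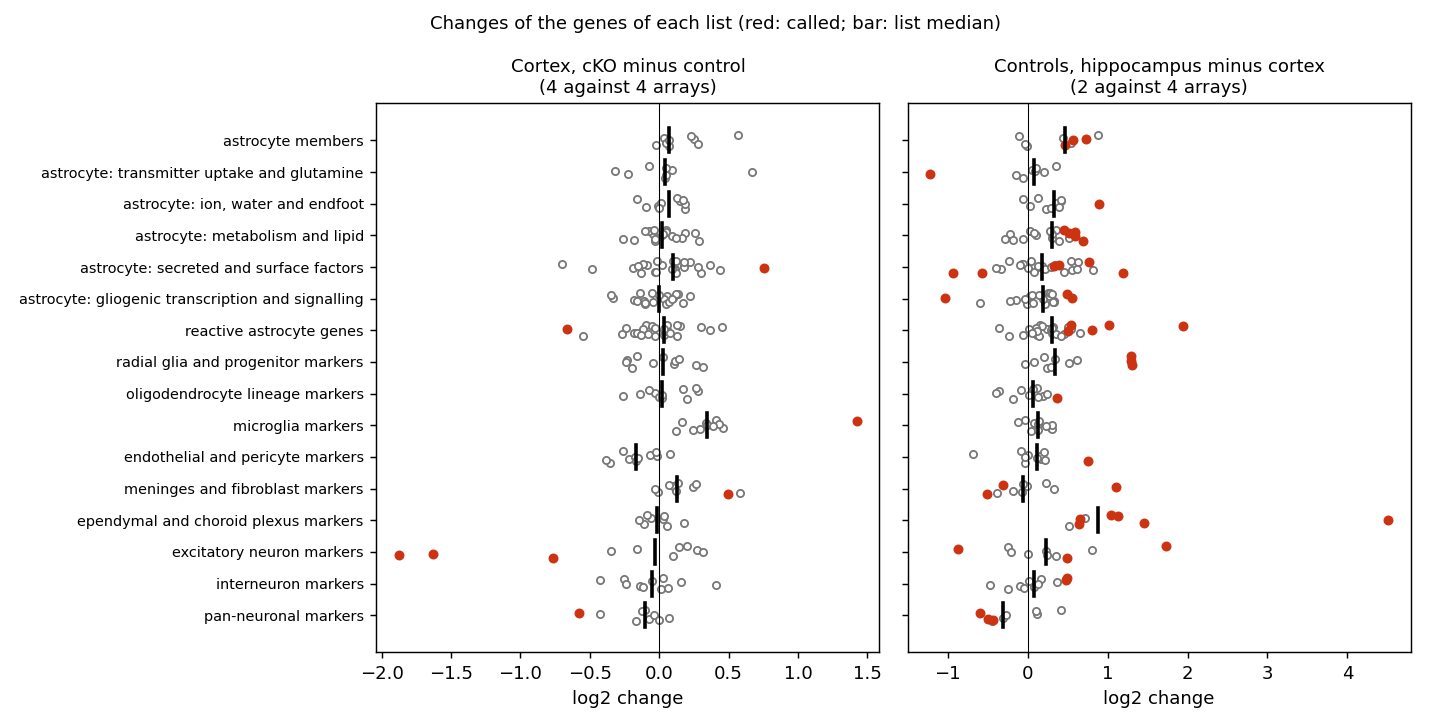
log2 differences of the genes of the astrocyte and cell type lists (region markers and checks are not drawn; 1 point per gene, with called genes marked and the list's median as a bar) for cKO minus control in cortex and for hippocampus minus cortex in controls. The medians of the astrocyte lists lie near 0 in the cKO cortex (-0.0033 to 0.10, and 0.07 for the 9 members), and the ependymal and choroid plexus list has the highest regional median of the lists drawn, 0.88.

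Markers of other cells moved in the same comparisons. In the cKO cortex all 11 microglia markers had positive differences (median 0.35), and Fcgr3, an Fc receptor, rose by 1.42 with a limma adjusted p of 0.00514. Their mean level was 6.46 to 7.01 on the controls and 6.87 to 7.44 on the cKO arrays. Of 10 excitatory neuron markers Neurod6, the gene that carries Cre, Fezf2 and Bcl11b fell, while 5 of 10 differences were positive and the median was -0.03. The mean level of the list was 9.51 to 9.72 on the controls and 9.21 to 9.28 on the cKO arrays. Elavl4 fell among 9 pan-neuronal markers, and Aldh1a2 rose among 10 meningeal markers. Without the arrays lacking Y-linked signal the calls of Fcgr3 (adjusted p = 0.0656), Bcl11b (0.0564), Elavl4 (0.117) and Aldh1a2 (0.0948) were lost, and with the replicate block those of Fcgr3 (0.0828), Elavl4 (0.0851) and Aldh1a2 (0.118). With all 14 arrays as labelled Aldh1a2 was lost as well (0.162). Endothelial and pericyte markers had 10 of 11 negative differences, with a median of -0.16 and 3 of 11 at an unadjusted p under 0.05. No marker passed among 11 endothelial and pericyte, 11 oligodendrocyte, 11 radial glia and progenitor, 11 interneuron or 8 ependymal and choroid plexus markers. Over all probe sets in the cortex comparison 45.4% of differences were positive, with a median of -0.02. By the same rule 0.591% were called higher and 1.36% lower, and 11.4% had an unadjusted limma p under 0.05. The part of these cells in the astrocyte values was not tested.

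Between regions the ependymal and choroid plexus markers stood out, with 6 of 8 higher in hippocampus. Their mean level was 5.09 to 5.21 on the cortex controls, 6.08 and 6.89 on hippocampus controls 1 and 3, and 6.91 on the hippocampus cKO array. Ttr, the transthyretin of choroid plexus, was at 5.41 to 6.19 on the cortex controls, 8.28 on hippocampus control 1 and 12.3 on control 3. Of the 9 members on hippocampus controls 1 and 3, the set mean was 9.63 and 9.71, with Gfap at 9.00 and 9.01, Gja1 at 10.53 and 10.54, Sox9 at 8.59 and 8.55, and Aldh1l1 at 9.15 and 9.20. Slc1a3 (10.73 and 10.87), Aqp4 (10.30 and 10.52), Aldoc (11.35 and 11.47), Gjb6 (7.25 and 7.41) and Glul (9.75 and 9.86) were higher on control 3. Sox9 alone of the 9 members was lower on control 3 than on control 1. The median over all probe sets was also higher on control 3, at 6.75 against 6.66 on control 1. Radial glia and progenitor markers gave 3 higher of 11. Emx2 and Hopx mark radial glia, and Eomes marks intermediate progenitors. Pan-neuronal markers gave 3 lower of 9. The oligodendrocyte list gave 1 higher of 11 (Olig2), the endothelial list 1 higher of 11 (Rgs5), the meningeal list 1 higher and 2 lower of 10, the interneuron list 2 higher of 11, the excitatory list 2 higher and 1 lower of 10, and the microglia list none of 11. These counts stand beside 6.2% of all probe sets called higher and 6.29% lower. Without each array in turn, all 3 radial glia and progenitor calls, 3 of 6 ependymal and choroid plexus calls and 2 of 3 excitatory calls held, and none of the pan-neuronal, oligodendrocyte, endothelial, meningeal or interneuron calls did. No marker of these lists was at or below the background guide in any group's mean, and the part of these cells in the regional astrocyte values was not tested.

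The genes whose values followed the members' mean most closely over the 11 arrays were Axl, a receptor tyrosine kinase, with a root mean square difference of 0.0635 (log2), Slc9a3r1 (0.0651), Nde1 (0.0655), Pnrc2 (0.0675) and Tmem175 (0.0694). The members' mean itself, centred over arrays, ran from -0.41 on cortex control 2 to 0.36 on the hippocampus cKO array. Slc9a3r1 also stands on the endfoot list.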

How the data were processed

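Total RNA of cortex and hippocampus was hybridised to Affymetrix exon arrays, 1 per sample, and groups were taken per the labels. The deposited values are log2 expression levels per probe set, made by the authors with Expression Console, RMA and Partek 6.4 on the mm9 build, per the submitters' processing notes. The sources used here do not name the arrays that were normalized together. Of 23332 probe sets, 14996 carried 1 symbol.

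limma 3.58.1 in R 4.3.3 fitted 1 mean per group to 11 arrays, without a filter, followed by eBayes, and p-values were adjusted by Benjamini-Hochberg across the whole table. The limits for a call, 0.05 for the adjusted p and 1.2 for the fold, are those of the series text. Intervals are moderated 95% intervals. The test was tried on simulated data, and no result of that trial is used here. Replicate numbers did not pair the cortex arrays (correlations of same-numbered arrays from -0.06 to 0.05). Array number limits the precision. Alternatives covered the arrays, Y-linked signal, scaling, filter, weights, replicate block and fold limit.

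The members and lists were chosen with earlier results of these data known. All members were named, with Ctcf, Neurod6, Prox1 and Rorb as checks, up to 4 called genes per list and otherwise up to 2 by p, and the 5 probe sets most like the members' mean. Which list genes have array values in the text was decided with those values in view.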

Additional observations from a re-analysis of the deposited data

Results flagged for a closer look

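Gjb6 on cortex control 4 stood apart from the other cortex controls, at 7.65 against 7.25 to 7.29, with a gap of 0.906 of the group's range, above Dixon's 95% critical value for 4 arrays. Chance gives such a gap in about 5% of groups, and 18 groups (9 genes in 2 cortex groups) were examined. The same array was also the highest cortex control for Slc1a3, Gja1 and Glul.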

How the results depend on the processing

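No member passed in the cKO cortex, the cKO hippocampus or the difference between them under any alternative run, leaving out single arrays included. For the region comparison, no member passed with all 14 arrays, with the compared groups alone, without the arrays lacking Y-linked signal or with the replicate block, 1 passed at a fold of 1.5, 5 passed with the filter, the trended robust fit or array weights, 6 after quantile normalization, and 0 to 4 without single arrays. Counts over all probe sets in cortex were 282 with the Y-linked covariate, 56 without the arrays lacking that signal, 118 with the replicate block, 287 at a fold of 1.5 and 273 to 455 without single arrays. In hippocampus they were 78 with all 14 arrays, 30 after quantile normalization, 9 after centring, 8 with the trended robust fit, 0 with the groups alone, the covariate or the block, and 0 to 4 without single arrays. Between regions they were 635 with all 14 arrays, 1127 with the groups alone, 1772 with the covariate, 226 without the arrays lacking the signal, 402 with the block, 1502 at a fold of 1.5, 1124 with the pair shift subtracted and 597 to 2913 without single arrays. For the difference of cKO effects they were 0 with all 14 arrays or the block, 4 after quantile normalization or centring, and 0 to 2 without single arrays. Centring left 30.8% of regional calls higher against 49.6% as deposited, and 39.6% against 30.3% in cortex (37.9% after quantile normalization). In hippocampus, higher calls went from 0 of 1 to 33.3% after quantile normalization and 44.4% after centring. Signs turned only for small differences. In cortex, Sox9 became 0.016 after quantile normalization, 0.0091 after centring and 0.011 with weights. In hippocampus, Glul became -0.034 after quantile normalization, -0.044 after centring and -0.046 with the block, Aldoc -0.022 after centring and -0.020 with the block, and Sox9 0.078 with the block. Between regions, Gjb6 became 0.0011 with all 14 arrays, 0.0043 with weights, 0.13 with the covariate, 0.046 without the arrays lacking the signal and 0.0071 with the block. Glul became 0.016 with the covariate, 0.0448 after quantile normalization and 0.0446 after subtraction, and Aldh1l1 0.019 without those arrays, 0.12 after quantile normalization and 0.13 with weights. Without single arrays the ranges were, in cortex, -0.052 to 0.017 for Sox9, -0.066 to 0.15 for Aqp4, -0.055 to 0.19 for Aldh1l1 and -0.039 to 0.10 for Aldoc, in hippocampus, -0.044 to 0.18 for Aqp4, -0.014 to 0.10 for Aldoc, -0.033 to 0.075 for Glul and -0.029 to 0.015 for Sox9, and between regions, -0.13 to 0.12 for Aldh1l1 and -0.11 to 0.062 for Gjb6. The causes were not tested. Each member has 1 probe set, so the next probe set could not be tried, and hippocampus without its only kept cKO array gave no value, nor did hippocampus and the difference without the arrays lacking Y-linked signal.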
